A study of Mus musculus with 6 samples.

Results

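The genes described here are 10 receptors and effectors of mature neutrophils: Csf3r, Cxcr2, Fpr1, Clec4d, Trem1, Il1b, Il1r2, Slpi, Hdc and Mxd1. They were chosen by name, and each was found among the 28773 genes of the series. The RNA came from CD8+ T cells that had been separated out of mouse spleen tissue on day 35. The MWA+PBS group (3 samples) came from tumor-bearing mice given microwave ablation (MWA) of the tumor and injections of the vehicle PBS. The MWA+2DG group (3 samples) came from mice given the same ablation and injections of 2-deoxy-D-glucose (2DG), a glucose analogue that blocks glycolysis, starting on day 10 and repeated at intervals of 2 days until day 30. Both groups thus carried an ablated tumor, and untreated mice were not analysed here. The mice of the study's wild-type tumor experiments were 6-week-old females, while the sources used here do not give the strain or tumor line behind these libraries. Whether each sample was 1 mouse or a pool is not given either, so p-values measure the spread between these samples only.

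Neutrophils leave the bone marrow as short-lived phagocytes. As they mature they stop making granule proteins and begin to transcribe receptors that sense growth factors, chemokines and microbial products. Csf3r, the G-CSF receptor, drives their production, and Cxcr2 and Fpr1 guide them to inflamed tissue. Many of these genes are not private to neutrophils: Il1b, Slpi, Trem1, Clec4d, Csf3r and Fpr1 can also be transcribed by monocytes or macrophages, and Hdc by basophils and mast cells. None of the 10 genes defines CD8+ T cells.

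The identity of the samples was checked against marker genes. All 18 T lineage genes were above 0 in every sample, and their summed level was 2207 to 2363 FPKM in MWA+PBS, against 3116 to 3357 FPKM in MWA+2DG. FPKM counts fragments per kilobase of transcript, scaled to the number of mapped fragments, so levels can be compared between genes. Ly6g, the defining surface marker of mouse neutrophils, was detected in every sample, at 0.41, 0.83 and 0.37 FPKM in MWA+PBS and at 19.57, 18.96 and 19.29 FPKM in MWA+2DG. Stfa2l1 and BC100530, which mark mature neutrophils, were listed at 0 in all 3 MWA+PBS samples and were 0.46 to 1.45 FPKM in MWA+2DG. Each sample had 12198 to 12515 genes with an FPKM of at least 1. Within a group, Pearson's r of log2(FPKM + 1) over 12444 genes, which are not independent replicates, was 0.984 to 0.989, and between groups 0.934 to 0.943. Among reference genes, Cd8a rose from 231.5 to 366.4 FPKM (log2 fold change 0.66, limma adjusted p = 8.94e-05). Cd3e had 0.38 (-0.0751 under T lineage scaling). Lyz2, the lysozyme of myeloid cells, had 0.41 (-0.0455), S100a9, a neutrophil alarmin, had 4.65 and Actb had 0.15 (-0.30). Cd8a and Cd3e are among the 18 genes that set the T lineage scaling, so a small Cd3e value under it was built in. Read depth is unknown, since the files hold no counts. The labels name no batch, and any batch split along the groups and the treatment cannot be told apart.

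The 10 genes did not move together. At a limma adjusted p under 0.05, Cxcr2 and Mxd1 were higher and Slpi and Il1b lower in MWA+2DG. Csf3r, Fpr1 and Hdc did not pass. These 7 had a mean FPKM of at least 1, the minimum for the test. Clec4d, Trem1 and Il1r2 were below it and were not tested. Thus 4 of 7 genes were called, against 39.4% of all 12444 genes tested. Of them 2 were called higher, against 22.3%, and 2 lower, against 17.1%. Cxcr2 met the minimum only through MWA+2DG, where it was high, so these counts and the median are descriptions of the genes tested. The median log2 fold change of the 7 was 0.19, beside 0.05 over all genes tested. Summed over all 10 genes the level was 42.03, 42.15 and 37.72 FPKM in MWA+PBS and 40.01, 39.66 and 40.60 FPKM in MWA+2DG, so the sums of the groups overlapped. Gene by gene the groups separated in 9 of 10, with 7 higher and 2 lower in MWA+2DG, and overlapped in Fpr1 only. Such separation was seen for 33.1% of the 28458 genes above 0 in any sample, with 17.1% higher and 16% lower in MWA+2DG. T lineage genes themselves were higher in MWA+2DG, and scaling every sample to them lowered log2 fold changes by up to 0.457 and took the median of all genes from 0.05 to -0.34. Csf3r, Fpr1, Hdc and Mxd1 then changed sign, while Cxcr2, Il1b and Slpi kept theirs. Under that scaling 1 of the 7 was called higher, against 4.64% of all genes tested, and 2 lower, against 62.8%, so counts of lower genes under it are to be read against that share.

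FPKM is scaled to transcript length, so the genes can be ordered by level. In MWA+PBS the order of mean FPKM was Slpi (14.0), Csf3r (8.91), Il1b (5.24), Mxd1 (5.11), Fpr1 (3.80), Hdc (1.96), Cxcr2 (0.733), Trem1 (0.523), Clec4d (0.263) and Il1r2 (0.0733). Samples of Il1b and Mxd1 overlapped, as did those of Cxcr2 and Trem1, and the other neighbours were separate. In MWA+2DG the order was Csf3r (10.3), Mxd1 (6.49), Slpi (5.54), Cxcr2 (5.29), Fpr1 (4.16), Il1b (3.55), Hdc (2.55), Trem1 (0.923), Clec4d (0.737) and Il1r2 (0.597). There Slpi overlapped Cxcr2, Cxcr2 overlapped Fpr1, Fpr1 overlapped Il1b, and the samples of Trem1, Clec4d and Il1r2 overlapped each with the next.

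**Figure D1:**
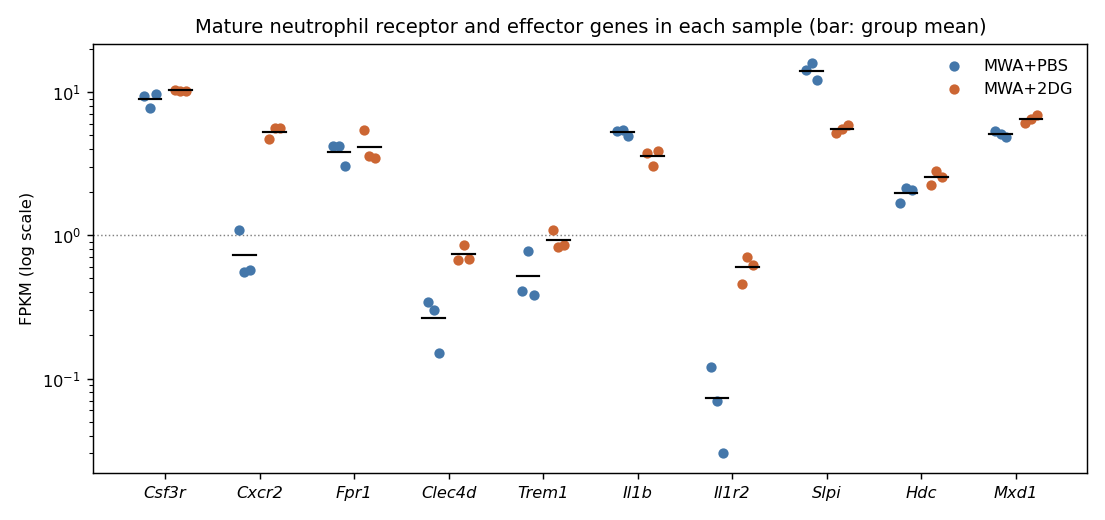
FPKM of the 10 genes in each sample, on a log axis. Points are samples, 3 per group, short bars are group means, and the dotted line marks 1 FPKM. Cxcr2 and Il1r2 lie well above their MWA+PBS points in MWA+2DG, Slpi and Il1b lie below, and Fpr1 overlaps.

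The promoters of the 4 genes that passed the test are shown because these genes went in opposite directions. Each run holds the 250 bases before the RefSeq start, 5′ to 3′ on the strand of the gene, from build GRCm38.p6. Promoters were found for all 10 genes. Capitals mark matches, on either strand, to 3 short motifs of myeloid and inducible factors: TTNNGNAA for C/EBP, GAGGAAG for PU.1 and TGANTCA for AP-1.
Cxcr2, chr1:74153744-74153993, plus strand: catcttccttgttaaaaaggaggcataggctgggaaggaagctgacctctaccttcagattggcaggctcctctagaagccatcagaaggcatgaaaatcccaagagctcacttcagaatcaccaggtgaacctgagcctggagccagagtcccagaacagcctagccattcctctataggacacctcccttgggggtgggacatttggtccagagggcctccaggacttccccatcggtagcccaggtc
Mxd1, chr6:86669160-86669409, minus strand: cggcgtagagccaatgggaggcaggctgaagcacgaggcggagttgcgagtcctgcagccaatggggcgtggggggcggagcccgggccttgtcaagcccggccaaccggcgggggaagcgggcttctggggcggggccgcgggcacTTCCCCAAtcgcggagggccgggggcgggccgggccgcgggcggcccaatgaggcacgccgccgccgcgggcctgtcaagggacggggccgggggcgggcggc
Slpi, chr2:164356508-164356757, minus strand: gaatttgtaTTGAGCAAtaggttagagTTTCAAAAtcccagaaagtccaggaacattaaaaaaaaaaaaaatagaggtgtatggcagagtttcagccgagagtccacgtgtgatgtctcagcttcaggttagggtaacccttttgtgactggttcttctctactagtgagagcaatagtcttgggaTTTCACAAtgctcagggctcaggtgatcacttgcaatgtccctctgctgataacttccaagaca
Il1b, chr2:129371140-129371389, minus strand: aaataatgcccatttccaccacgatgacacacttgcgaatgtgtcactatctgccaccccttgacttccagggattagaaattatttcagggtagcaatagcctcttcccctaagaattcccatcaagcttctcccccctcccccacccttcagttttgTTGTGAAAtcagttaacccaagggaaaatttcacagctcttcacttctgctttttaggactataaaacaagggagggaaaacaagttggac

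Of the 4 windows shown, that of Slpi held 3 C/EBP matches, those of Mxd1 and Il1b held 1 each, and that of Cxcr2 held none of the 3 motifs. Positions are counted back from the start, with 1 for the base next to it. The matches of Slpi began 241, 223 and 64 bases before the start, that of Il1b 91 bases and that of Mxd1 103 bases before it. Over all 10 genes, 6 windows held a C/EBP match, 2 held a PU.1 match (Csf3r and Clec4d), and 0 held an AP-1 match. Among 32817 promoter windows of the same length the shares were 36.8%, 10.6% and 6.75%. No match overlapped a match of another motif. These letters are common, so a match describes the window and is not a binding site.

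Of Csf3r, Cxcr2 and Fpr1, the receptors among the 7 genes tested, Cxcr2 had the largest change. Cxcr2 (ENSMUSG00000026180) encodes the receptor for the chemokines CXCL1 and CXCL2, which recruits neutrophils from marrow and blood. It was 1.08, 0.55 and 0.57 FPKM in MWA+PBS and 4.67, 5.58 and 5.61 FPKM in MWA+2DG. Every MWA+2DG sample was thus above every MWA+PBS sample. The mean rose from 0.733 ± 0.30 to 5.29 ± 0.534 FPKM (SD, n = 3), a ratio of 7.21. Fold changes were taken on log2(FPKM + 1), a scale that makes changes of low genes look smaller. That of Cxcr2 was 1.87 ± 0.13 (SE, limma adjusted p = 4.96e-05). Cxcr2 met the minimum for the test only through MWA+2DG, and without the minimum its limma adjusted p was 0.000719.

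Csf3r (ENSMUSG00000028859), the G-CSF receptor, was the most abundant of the 6 receptors in both groups. Its levels were 9.33, 7.75 and 9.64 FPKM in MWA+PBS and 10.40, 10.22 and 10.17 FPKM in MWA+2DG. The groups did not overlap, but the gap was small. The log2 fold change was 0.19, with a 95% interval of -0.00099 to 0.38 (limma adjusted p = 0.104), and it was 0.10 without MWA+PBS replicate 2. With samples scaled to T lineage genes instead it was -0.22 (limma adjusted p = 0.0615). A processed pseudogene, AC105061.2, matches 1518 bases of Csf3r at 96.8% identity and was listed at 0 to 0.17 FPKM, so a small share of Csf3r reads could have been assigned there.

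Fpr1 (ENSMUSG00000045551) encodes the high-affinity receptor for bacterial formyl peptides. It was 4.19, 4.18 and 3.02 FPKM in MWA+PBS and 5.42, 3.57 and 3.48 FPKM in MWA+2DG. Only MWA+2DG replicate 4 lay above all MWA+PBS samples. The log2 fold change was 0.09, with a 95% interval of -0.29 to 0.48 (limma adjusted p = 0.681). Its sign turned without MWA+2DG replicate 4 (-0.0741), without MWA+PBS replicate 3 (-0.0283) and under T lineage scaling (-0.27).

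Fpr2 encodes a related formyl peptide receptor. It was 3.04, 3.53 and 2.73 FPKM in MWA+PBS and 12.89, 10.92 and 12.57 FPKM in MWA+2DG. Its log2 fold change was 1.68 ± 0.09 (SE, limma adjusted p = 1.45e-05). Fpr1 over Fpr2 was 1.11 to 1.38 in MWA+PBS, against 0.277 to 0.42 in MWA+2DG, and the groups did not overlap. Ratios of genes are given as descriptions, since with 3 samples against 3 an exact permutation test cannot go below p = 0.1. The longest transcripts of both genes align over 936 bases at 70.0% identity.

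Clec4d and Trem1 are activating receptors of myeloid cells. Clec4d encodes a C-type lectin that binds fungal and mycobacterial glycolipids, and Trem1 encodes an immunoglobulin-like receptor that amplifies inflammatory signals. Clec4d (ENSMUSG00000030144) was 0.34, 0.30 and 0.15 FPKM in MWA+PBS and 0.67, 0.86 and 0.68 FPKM in MWA+2DG. Trem1 (ENSMUSG00000042265) was 0.41, 0.78 and 0.38 FPKM in MWA+PBS and 1.08, 0.83 and 0.86 FPKM in MWA+2DG. In both genes the groups did not overlap, with ratios of means of 2.80 and 1.76. Without the minimum of 1 FPKM, 6 of the 10 genes were called, 4 higher and 2 lower, against 18.3% of 28458 genes, 9.03% higher and 9.27% lower. In that fit Clec4d differed by 0.46 on the log2 scale (limma adjusted p = 0.0174) and Trem1 by 0.34 (limma adjusted p = 0.13).

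The IL-1 genes differed in direction. Il1b (ENSMUSG00000027398) encodes interleukin 1 beta, the fever-inducing cytokine. It was 5.36, 5.44 and 4.92 FPKM in MWA+PBS and 3.74, 3.05 and 3.87 FPKM in MWA+2DG. All MWA+2DG samples lay below all MWA+PBS samples. The log2 fold change was -0.46 ± 0.09 (SE, limma adjusted p = 0.00576).

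Il1r2 (ENSMUSG00000026073) encodes the decoy receptor, which binds IL-1 without signalling. It was 0.12, 0.07 and 0.03 FPKM in MWA+PBS and 0.46, 0.71 and 0.62 FPKM in MWA+2DG. The groups did not overlap, and the means of 0.0733 ± 0.045 and 0.597 ± 0.127 FPKM (SD, n = 3) gave a ratio of 8.14, which rests on values of a few hundredths in MWA+PBS. Without the minimum the log2 fold change was 0.57 ± 0.07 (SE, limma adjusted p = 0.00425). Il1r1, the signalling receptor, fell from 1.65 ± 0.201 to 0.883 ± 0.245 FPKM (SD, n = 3), or by 0.50 on the log2 scale (limma adjusted p = 0.0174). It met the minimum only through MWA+PBS, and without the minimum its limma adjusted p was 0.0494. Il1r2 over Il1r1 was therefore 0.0203 to 0.0642 in MWA+PBS, against 0.554 to 0.789 in MWA+2DG.

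Slpi (ENSMUSG00000017002), the secretory inhibitor of neutrophil elastase and cathepsin G, was the most abundant of the 10 genes in MWA+PBS and fell most. It was 14.17, 15.81 and 12.08 FPKM in MWA+PBS and 5.21, 5.56 and 5.84 FPKM in MWA+2DG. The lowest MWA+PBS sample was above the highest MWA+2DG sample by a wide margin. The mean dropped from 14.0 ± 1.87 to 5.54 ± 0.316 FPKM (SD, n = 3), 2.53 times lower. The difference was -1.19 ± 0.10 on the log2 scale (SE, limma adjusted p = 8.84e-05).

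Hdc (ENSMUSG00000027360), histidine decarboxylase, makes histamine. It was 1.68, 2.15 and 2.06 FPKM in MWA+PBS and 2.25, 2.82 and 2.57 FPKM in MWA+2DG. The groups were separate by a narrow gap. The log2 fold change of 0.26 (95% interval 0.0221 to 0.50) did not pass at an adjusted level (limma adjusted p = 0.0798), and T lineage scaling gave -0.0554. It met the looser rule of the study's methods, an unadjusted P under 0.05 and a change beyond 0.25 on the log2 scale, by which 5 of 7 genes were called, against 38.2% of all genes tested, with 3 higher and 2 lower, against 21.6% and 16.6%.

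Mxd1 (ENSMUSG00000001156) encodes a partner of MAX that opposes MYC and accompanies terminal differentiation of myeloid cells. It was 5.35, 5.12 and 4.87 FPKM in MWA+PBS and 6.11, 6.46 and 6.90 FPKM in MWA+2DG. The groups did not overlap. Its difference of 0.29 ± 0.07 on the log2 scale (SE, limma adjusted p = 0.0124) fell short of the threshold without MWA+2DG replicate 6 (limma adjusted p = 0.0509), and under T lineage scaling it was -0.0970 (limma adjusted p = 0.248). Myc itself was 60.3 ± 3.69 and 72.6 ± 2.35 FPKM (SD, n = 3). Mxd1 over Myc overlapped between groups, at 0.0778 to 0.0913 and 0.0847 to 0.0978. In MWA+PBS, Mxd1 was above the neutrophil marker Ly6g, which was 0.41, 0.83 and 0.37 FPKM there. Which cells transcribed Mxd1, the CD8+ T cells included, was not tested.

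**Figure D2:**
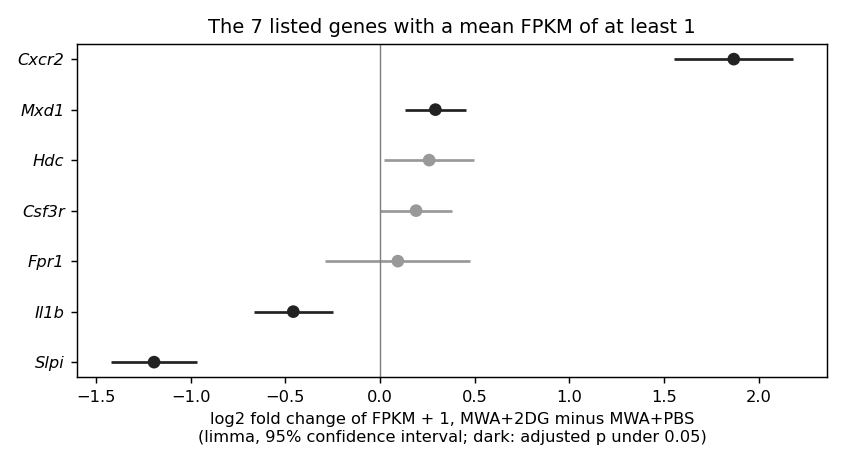
Log2 fold change of FPKM + 1, MWA+2DG minus MWA+PBS, for the 7 genes with a mean FPKM of at least 1. Points are limma estimates, lines are 95% intervals, and dark symbols mark an adjusted p under 0.05. Cxcr2 at 1.87 and Slpi at -1.19 are at the ends, and Mxd1, Hdc, Csf3r and Fpr1 near 0 changed sign after scaling to T lineage genes.

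The other genes of these pathways were then examined. Of 12 chemoattractant receptors 6 were tested, of which 5 were higher and 0 lower in MWA+2DG. Cxcr2 and C5ar1 met the minimum only through MWA+2DG, and without it the median over all 12 was 0.29. In that fit 5 of the 12 were called higher and 1 lower, which was Ccrl2, with -0.75 (limma adjusted p = 0.0174). Besides Cxcr2 and Fpr2 the higher genes were C5ar1, the receptor of complement C5a, with 1.36, Ltb4r1, the leukotriene B4 receptor, with 0.64, and Ccr1, with 0.56 (limma adjusted p = 0.000182, 0.00914 and 0.0129). Under T lineage scaling 3 of the 6 were higher. Cxcr1, the closest relative of Cxcr2, was at most 0.15 FPKM in any sample. Of 5 CXCR2 ligands only Ppbp, a gene of platelets that is also counted among the platelet markers, was tested, and it fell by 0.91 on the log2 scale (limma adjusted p = 0.00362).

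Receptors for the other colony-stimulating factors contrasted with Csf3r. Of the 5 genes of that list, 4 were lower and 0 higher, with Csf3r the exception. Csf1r, the receptor that maintains macrophages, was 72.77, 61.38 and 69.41 FPKM in MWA+PBS and 10.48, 10.66 and 10.52 FPKM in MWA+2DG. Its log2 fold change was -2.57 ± 0.07 (SE, limma adjusted p = 4.79e-07). Csf2rb, the shared chain of the GM-CSF receptor, had -1.23. Csf3r over Csf1r was 0.126 to 0.139 in MWA+PBS, against 0.959 to 0.992 in MWA+2DG.

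Among 16 lectin, TREM and Fc receptor genes with their adaptors, 13 were tested, 11 of them lower and 1 higher. The higher gene was Trem3, a relative of Trem1, with 0.77 (limma adjusted p = 0.00355). Treml4 and Clec4n fell furthest, with -2.42 and -2.26. Tyrobp, the adaptor through which TREM1 signals, was lower, with -1.32, and so was Fcer1g, the adaptor of many Fc and lectin receptors, with -1.76 (limma adjusted p = 0.000126 and 2.83e-05).

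Of 17 IL-1 pathway genes 13 were tested, 2 higher (Gsdmd, the pore-forming gasdermin D, at 0.46 and Il1rap, the IL-1 receptor accessory chain, at 0.31) and 2 lower (Il1b and Il1r1), while 9 did not pass. Il1rap was -0.00186 after scaling to T lineage genes, by which 0 of the 13 genes were higher and 8 lower, the latter near the 62.8% of all genes. Il1a was 1.61, 2.17 and 1.06 FPKM in MWA+PBS and 0.31, 0.19 and 0.43 FPKM in MWA+2DG and was below the minimum for the test.

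Slpi was set beside the serine proteases of neutrophil granules. Elane, Prtn3 and Ctsg, which encode elastase, proteinase 3 and cathepsin G of primary granules, had log2 fold changes of -2.05, -2.23 and -2.13 (limma adjusted p = 5.81e-06, 5.91e-06 and 1.01e-05). Of 11 genes of antiproteases and proteases 7 were tested, 2 higher and 5 lower, the latter including Slpi and these 3 proteases. Wfdc21 had 1.96 and Serpinb1a, an inhibitor kept inside neutrophils, 0.47 (0.0569 under T lineage scaling, limma adjusted p = 0.469), whereas Wfdc17, which met the minimum only through MWA+PBS, had -1.28. Of 3 histamine genes tested, Hrh2, the H2 histamine receptor, was higher, with 0.74 (limma adjusted p = 0.000275), and Slc18a2, which loads histamine into vesicles, was lower, with -0.86 (limma adjusted p = 0.00108).

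In the MAX network 2 of 9 tested genes were higher (Mxd1 at 0.29 and Myc at 0.27, or -0.0970 and -0.18 under T lineage scaling), 2 were lower (Mlxip at -0.47 and Max at -0.23) and 5 did not pass. Both counts are near the 22.3% and 17.1% of all genes tested. That scaling left 0 higher and 7 lower, beside 4.64% and 62.8% of all genes.

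**Figure D3:**
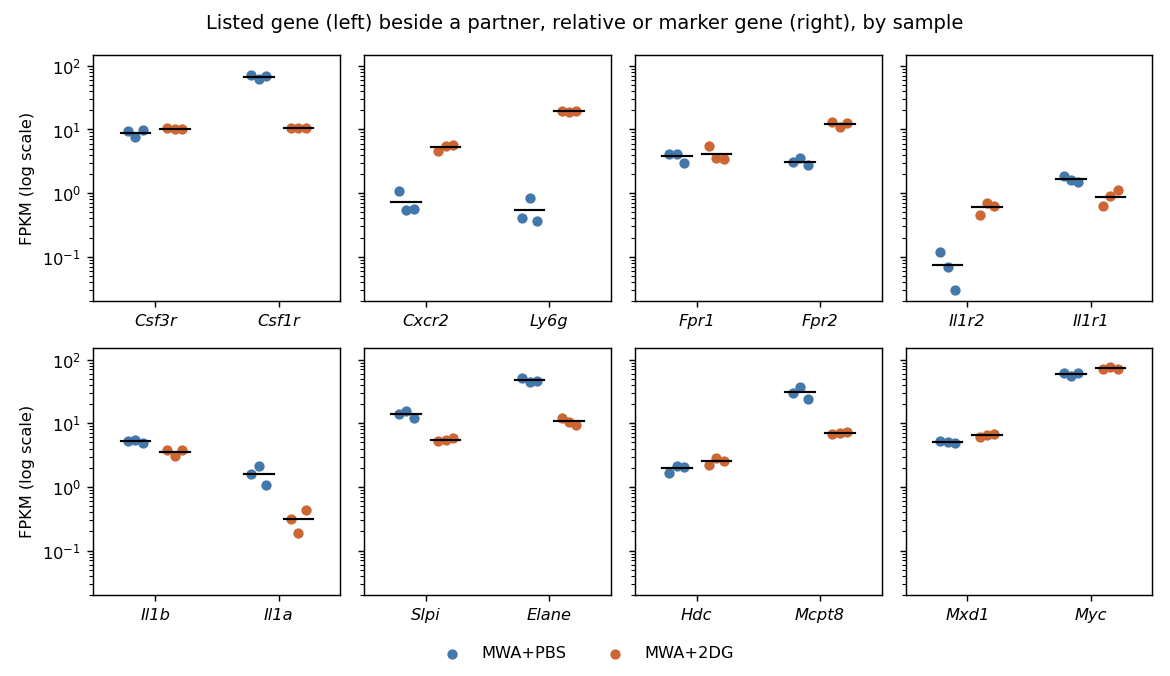
FPKM by sample, on a shared log axis, for 8 of the genes (left in each panel) and a related or marker gene (right). Points are samples, 3 per group, and bars are group means. Csf3r stays near 10 FPKM while Csf1r drops, and Fpr2 rises beside Fpr1. Mcpt8 drops, while Hdc is 1.68 to 2.15 FPKM in MWA+PBS and 2.25 to 2.82 FPKM in MWA+2DG.

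Genes of neutrophil granules changed by more than most of the 10 genes. Of 14 genes of secondary and tertiary granules and of abundant neutrophil proteins made with them, such as S100a8 and S100a9, 13 were tested, and all 13 were higher in MWA+2DG. Their median log2 fold change was 3.47. The lowest, Cybb at 0.20, was -0.23 after scaling to T lineage genes. Their summed level was 85.8 to 114.9 FPKM in MWA+PBS, against 1654 to 1839 FPKM in MWA+2DG. The summed level of the 10 genes over that sum was 0.367 to 0.453 in MWA+PBS, against 0.0218 to 0.024 in MWA+2DG. Of 26 other genes of mature neutrophils 17 were tested, 13 higher and 3 lower, with a median of 1.57, and T lineage scaling gave 10 higher and 6 lower. Retnlg, Mmp9, Wfdc21, Ly6g and Lrg1 had a mean below 1 FPKM in MWA+PBS and met the minimum only through MWA+2DG, and over all 26 genes without the minimum the median was 0.91. Cd177, Mmp8 and Mmp9 stand in both lists and are counted in each. Retnlg was at the top, with 4.10, followed by Ly6g, with 3.73, and Ccl6 was at the bottom, with -0.80. Cxcr2 over Ly6g was 0.663 to 2.63 in MWA+PBS, against 0.239 to 0.294 in MWA+2DG, so Cxcr2 rose by less than Ly6g.

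Markers of the other cells that can transcribe these genes moved as well. Of 18 monocyte and macrophage markers 17 were tested, 14 lower and 1 higher (Ly6c2 at 0.41, or -0.0429 after scaling to T lineage genes), with a median of -2.49. Hmox1, heme oxygenase 1, was lowest, with -2.99. Ccr2, with -0.06, and Cx3cr1, with 0.06, did not pass (limma adjusted p = 0.491 and 0.598). The markers summed to 917.1 to 984.2 FPKM in MWA+PBS, against 212.2 to 233.0 FPKM in MWA+2DG, with 0 of 18 at 0 in any sample. Of these sums Ly6c2 alone made up 61.76 to 66.6 FPKM in MWA+PBS and 79.09 to 90.39 FPKM in MWA+2DG. Il1b over Csf1r was 0.0709 to 0.0886 in MWA+PBS, against 0.286 to 0.368 in MWA+2DG, and Slpi over Csf1r was 0.174 to 0.258 and 0.497 to 0.555, so both genes fell by less than Csf1r. All 7 basophil and mast cell markers tested, of 9, were lower, with a median of -1.48 and sums of 99.1 to 125.7 and 25.4 to 26.7 FPKM, from Prss34 at -2.15 to Fcer1a at -0.72. Mcpt8, a basophil protease, fell from 30.5 ± 6.78 to 7.01 ± 0.188 FPKM (SD, n = 3), and Hdc over Mcpt8 was 0.0569 to 0.0845 in MWA+PBS, against 0.327 to 0.408 in MWA+2DG. Of 10 genes listed for primary granules and promyelocytes 9 were tested, 6 lower and 2 higher, or 7 lower and 1 higher under T lineage scaling. The higher genes were Cebpe and Nkg7, and Nkg7 is better known from cytotoxic granules of CD8+ T cells and natural killer cells. Mpo, myeloperoxidase, had -2.72. All 8 B cell markers were higher, from Cd79b at 1.21 to Cd79a at 2.60, with a median of 2.07, and 5 of them met the minimum only through MWA+2DG. All 8 erythroid (Hba-a1 at -2.17 to Alas2 at -1.17), 4 eosinophil (Ccr3 at -2.23 to Epx at -1.37), 3 platelet (Pf4 at -1.03 to Ppbp at -0.91) and 2 dendritic cell markers tested (Flt3, with -1.23, and Itgax) were lower, and Hba-a1, Ccr3, Pf4, Ppbp and Itgax met the minimum in both groups, unlike Alas2, Epx and Flt3. Of the T lineage genes, Cd2 had the largest log2 fold change, 0.69. The part of these cells in the values of the 10 genes was not tested. In bulk samples fewer cells of a type and less RNA per cell cannot be told apart.

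**Figure D4:**
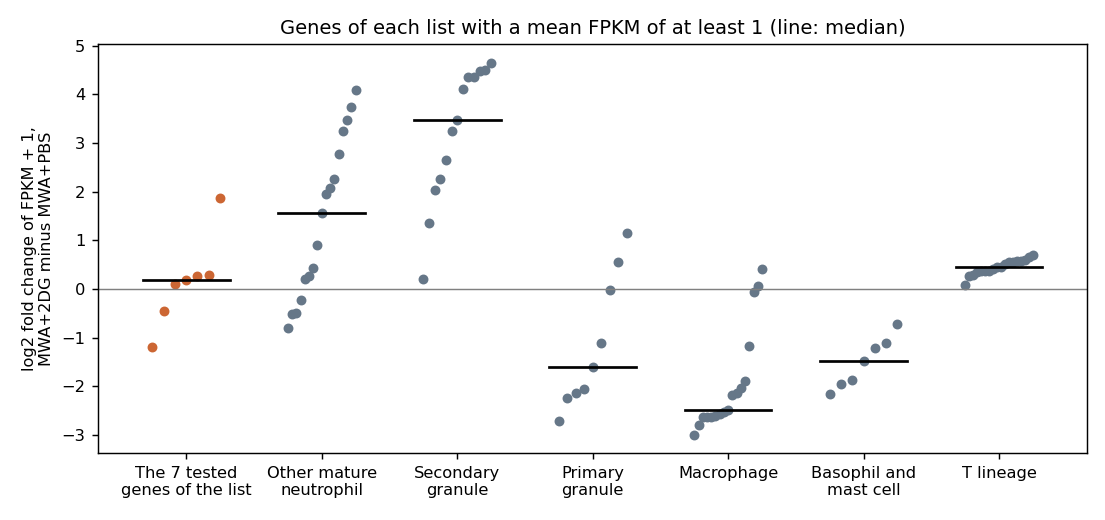
Log2 fold change of FPKM + 1, MWA+2DG minus MWA+PBS, for the tested genes of 7 lists. Each point is a gene and each line a list's median, which is 0.19 for the 7 tested receptor and effector genes (left), 3.47 for secondary granule genes and -2.49 for macrophage genes. Scaling to T lineage genes takes the first of these medians to -0.22 and leaves the direction of the other two.

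Transcription factors of granulocyte development were mixed. Cebpe, which controls secondary granule genes, rose from 1.44 ± 0.232 to 4.39 ± 0.30 FPKM (SD, n = 3), or by 1.15 on the log2 scale (limma adjusted p = 0.000108). Cebpa, which starts the granulocyte lineage, and Spi1, which encodes PU.1, were lower, with -1.83 and -0.95 (limma adjusted p = 3.09e-05 and 5.15e-05). Cebpa met the minimum only through MWA+PBS, and without the minimum its limma adjusted p was 0.000497. Gfi1 (-0.02) and Runx1 (-0.12) did not pass, and under T lineage scaling both were called lower (-0.41 and -0.50), which made 1 of the 5 genes tested higher and 4 lower.

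The mean profile of the 7 tested genes was compared with that of every other gene tested. The genes nearest to it, by root mean square distance over the 6 samples, were Znrf1, Arl15, Mpp1, Man2c1 and Top3b, at 0.0172 to 0.0201 on the log2 scale, and their log2 fold changes were 0.13 to 0.17. That mean profile averages genes that rose and fell. For Cxcr2 alone, a comparison added after its values were seen, the nearest were Cd22, Fcer2a, Pglyrp1, Cxcr3 and Pax5, at 0.161 to 0.187, with log2 fold changes of 1.53 to 2.11. For Slpi, added in the same way, they were Slc22a3, Dnaja1, Ahsa1, Igkv6-32 and Ly86, at 0.0349 to 0.0662, with log2 fold changes of -1.16 to -1.10. The 6 samples hold 1 contrast, so many genes are near each profile.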

How the data were processed

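RNA-seq was analysed for splenic CD8+ T cells, 3 samples in MWA+PBS and 3 in MWA+2DG, grouped by their titles in the labels. The cells had been isolated with a mouse CD8+ T cell kit after lysis of red blood cells. The authors prepared poly(A) libraries, checked reads with fastp, mapped them with HISAT2 and computed FPKM with StringTie and ballgown. The submitters' processing notes name cutadapt 1.9, HISAT2 2.0.4, UMI-tools, StringTie 1.3.4d and build mm9, and the sources used here do not give the annotation. The deposited FPKM values carry 2 decimals and no counts. FPKM is a share of the library, so a rise elsewhere lowers it. FPKM times transcript length showed no common step (resonance at most 0.0442, where 1 would mean whole reads), so the depth stays unknown and counting intervals were left out.

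Symbols came from GENCODE M21 (28689 of 28773 IDs). Its build, GRCm38, is not mm9, and the files hold no coordinates, so those of the promoters belong to RefSeq on GRCm38.p6. The test was limma 3.58.1 in R 4.3.3 (lmFit, eBayes with a trend), two-sided, on log2(FPKM + 1), for 12444 genes with a mean FPKM of at least 1, with Benjamini-Hochberg adjustment over all of them. Tested on data simulated for these 2 groups over 12444 genes, it recovered 91% of 100 genes changed by 1 and 98% of 100 changed by 2 on the log2 scale. BLAST 2.17.0 was used to look for near copies (95% identity or more over 300 bases or more), and 1 of the 10 genes had one. Exons of Il1b overlap the antisense gene Il1bos, listed at up to 0.05 FPKM, and those of Slpi overlap Mir7678, at up to 0.43 FPKM.

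The 10 genes and the other 21 lists were chosen with earlier results of these data known. Named genes were the 10, the highest and lowest tested gene of each list, their partners, relatives and markers, reference genes, and the nearest profiles, and Ly6g, Stfa2l1 and BC100530 were added as identity checks after their values were seen. Alternatives were a pseudocount of 0.1, no filter or a mean FPKM of at least 5, 4 other scalings (one of them to the geometric mean of the T lineage genes), no trend, array weights, a minimum fold change and leaving out each sample. Stfa1 was not among the IDs used. Some genes stand in more than 1 list and are counted in each. The results of 1 list and of 1 other gene are not reported here. No set tests were run.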

Additional observations from a re-analysis of the deposited data

How the results depend on the processing

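No paired analysis was possible because the groups share no replicate number (1, 2 and 3 against 4, 5 and 6). Of 101 comparisons of a single gene with an alternative, 93 kept direction and side of the threshold, 1 lost and 1 gained a call without changing sign, and 6 changed sign, among them Mxd1, which also lost its call under T lineage scaling. Cxcr2, Il1b and Slpi stayed called in the same direction under every other setting of the values or samples in which they were tested (14, 14 and 15), with log2 fold changes of 1.58 to 2.74, -0.83 to -0.38 and -1.60 to -1.11. Scaling to T lineage genes reversed Csf3r (-0.22), Fpr1 (-0.27), Hdc (-0.0554), Mxd1 (-0.0970) and the median of the 7 genes (-0.22), and gave 1 gene called higher, with 578 of all genes higher and 7810 lower. It lowers all genes, so values just above 0 had to change sign. It took the share of calls that were higher from 56.5% to 6.89%. Without a filter 4 of the 10 genes were higher and the median over 10 was 0.28. With a mean FPKM of at least 5, 3 of the genes were tested, 1 higher and 1 lower, and 1787 of all genes were higher and 1164 lower. A log2 fold change beyond 1 left 1 gene higher (Cxcr2) and 1 lower (Slpi), so Il1b lost its call there, and 144 and 478 of all genes. The median was 0.16 with quantile normalization and 0.14 with median ratio scaling. With arrayWeights Hdc was called (limma adjusted p = 0.0213). Leaving out each sample gave 1 to 2 genes called higher, the loss being Mxd1 without MWA+2DG replicate 6 (limma adjusted p = 0.0509), and -0.0741 to 0.19 for Fpr1. The cause of these changes other than T lineage scaling and the filters was not tested. How much of the spread comes from depth is unknown, above all for Clec4d, Trem1 and Il1r2.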
